A study of Homo sapiens with 4 samples.

Results

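HepG2 is an established human liver tumour cell line that still makes many plasma proteins, and the response of its RNA to COP1 knockdown is described here gene by gene. The HepG2 libraries were chosen by their labels, which name the cell line and the siRNA, and they are 2 of the 4 libraries of the series. HepG2 cells received either the control siRNA of the study (NC-siRNA) or an siRNA targeting COP1 (COP1-siRNA), each at 20 nM, in a lipid transfection of 5 h, and RNA was taken 48 h after transfection. The Huh7 line was treated in the same way and is given beside HepG2. Each line and siRNA has 1 library of polyadenylated, stranded RNA, a single siRNA was used against COP1, and the cells carry no other stated treatment or engineered allele. Without a second library no difference has a replicate check, so no p-value is given and a difference between the lines was not tested. Of 46427 gene numbers, 14456 reached a TPM of 1 (TPM is a level corrected for gene length and library size, scaled to the same sum in every library) in at least 1 HepG2 library and were compared. The log2 fold change is taken after 1 TPM is added to the level in either library, knockdown over control, a scale on which the change of genes with a low level is understated. A gene is called higher or lower in HepG2 when this value is at least 1 in size, a 2-fold difference.

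COP1 is an E3 ubiquitin ligase, a protein that marks other proteins for destruction. Together with DET1 and the CUL4-DDB1 scaffold it acts on transcription factors such as JUN and the ETS family, and the Tribbles pseudokinases bring it to C/EBP proteins, which are central regulators of liver genes. Since the ligase acts on proteins, RNA levels show only what lies downstream of it. Hepatocytes secrete albumin, fibrinogen, complement and carrier proteins under the control of HNF4, C/EBP and other factors, and during inflammation IL-6 signals raise the acute-phase proteins among them.

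The cell lineage of the HepG2 libraries was checked against marker lists, which cannot tell HepG2 from another liver line. All 10 hepatocyte-lineage markers were at 1 TPM or more in both HepG2 libraries, and their summed level was 3506 TPM in the control and 4089 TPM after knockdown. In Huh7 all 10 were also at 1 TPM or more, with a summed level of 23752 and 20965 TPM. None of 5 endothelial markers reached 1 TPM in HepG2, with a summed level of 0.275 and 0.416 TPM, and of 6 stromal markers 1 did in each HepG2 library. Immune markers reached 1 TPM for 3 of 6 genes with NC-siRNA and 2 of 6 with COP1-siRNA, with a summed level of 209 and 167 TPM, and biliary markers for 3 of 5 in both, at 613 and 603 TPM. Of 5 erythroid markers 1 reached 1 TPM in each library, at a summed 1.91 and 2.84 TPM. The part of these markers in the results was not tested. The files hold no read counts, and the ratio of coverage to TPM puts the depth of the HepG2 COP1-siRNA library at 1.25 times that of its control, against 1.18 times in Huh7.

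The targeted gene, COP1 (gene 64326, GRCh38, chromosome 1, 175944826 to 176209087, minus strand), was at 26.9 TPM in the control and 16.1 TPM after knockdown in HepG2. This left 59.9% of its RNA, a log2 fold change of −0.71, which does not reach the 2-fold call. By sequencing coverage scaled for depth, 61.2% was left. In Huh7 COP1 was at 19.7 and 6.18 TPM, a log2 fold change of −1.53, so the fall was smaller in the HepG2 libraries than in the Huh7 libraries. The partners of the ligase had small differences in HepG2. CUL4B, a cullin scaffold, was at 71.7 and 55.4 TPM (−0.37), CUL4A at 31.7 and 37.3 TPM (0.23), DDB1 at 245 and 285 TPM (0.22), and DET1 at 7.98 and 8.63 TPM (0.10). TRIB3, a Tribbles pseudokinase induced by amino acid shortage, was at 27.9 and 38.0 TPM, a log2 fold change of 0.43. Of 10 genes of the ligase complex and Tribbles family tested, none was called in HepG2 and only COP1 reached 1.5-fold.

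Among RNAs of the known COP1 substrates none of 12 tested reached 1.5-fold in HepG2, and the median log2 fold change was 0.00. JUN, a subunit of the AP-1 transcription factor, was the farthest from 0, at 143 TPM in the control and 100 TPM after knockdown (−0.51). CEBPA, at 23.7 TPM in both libraries, and TCF7L2, at 20.2 TPM in both, had log2 fold changes that round to 0.00. In Huh7 the median of the same 12 RNAs was −0.29, with ETV4 at −0.86. Of 23 genes of AP-1 and ERK signalling tested in HepG2, 1 reached 1.5-fold. It was FOSL1, another AP-1 subunit, at 2.95 and 5.76 TPM (0.78) in HepG2 and 5.45 and 13.8 TPM (1.20) in Huh7. The immediate early genes EGR1 (35.8 and 24.2 TPM, −0.55) and FOS (7.31 and 5.38 TPM, −0.38) had lower values with COP1-siRNA in HepG2.

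Most genes were little changed. The median log2 fold change over the 14456 HepG2 genes was −0.01 with an SD of 0.28, and 95.6% of them lay within 1.5-fold. There were 78 genes called higher (0.54% of those tested) and 57 called lower (0.394%) at 2-fold. At 1.5-fold the counts were 370 higher (2.56%) and 270 lower (1.87%). Protein-coding genes made up 33 of the higher and 19 of the lower calls, which is 0.265% and 0.153% of the 12446 tested. The remaining calls were 18 long non-coding RNAs, 23 microRNA genes, 17 small nucleolar RNA (snoRNA) genes, 11 pseudogenes, 5 tRNA genes and 9 other small or unnamed genes. Many calls rest on little sequence, since 80 of the 135 called genes were under 5 TPM in both HepG2 libraries, 29 were listed at 0 in 1 of them, 50 span 200 bases or less and 76 overlap another gene on their strand. Depth-scaled coverage moved at least 1.5-fold in the same direction for 128 of the 135. Coverage and TPM come from the same assignment of reads, and many calls, such as SENP3-EIF4A1 (4.45), had the same value in both. The coverage count is therefore no independent check.

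**Figure D1:**
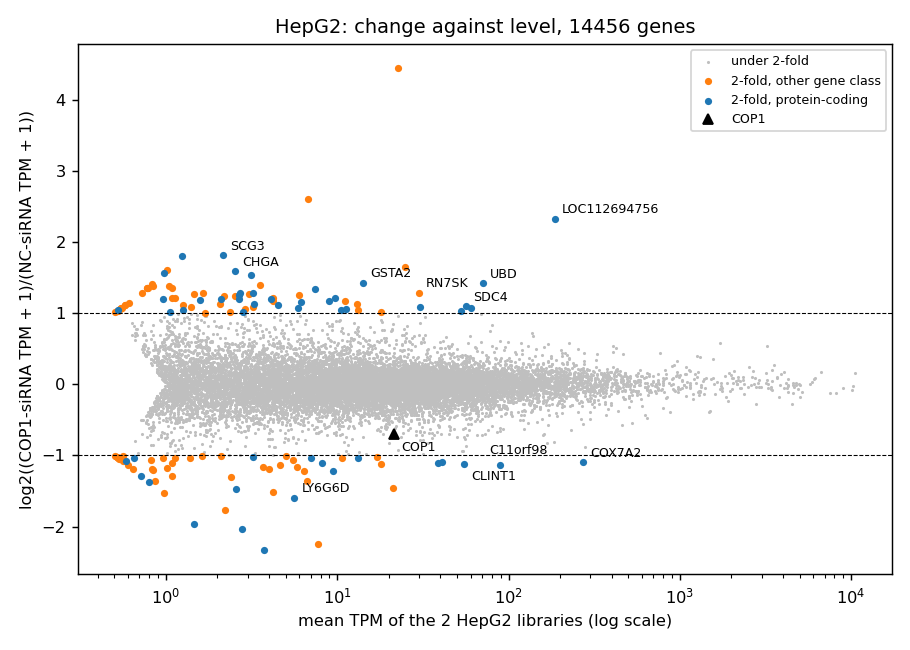
Change in HepG2 (vertical axis, log2 of the COP1-siRNA over the NC-siRNA value, each as TPM + 1) against the mean TPM of both HepG2 libraries (horizontal axis, log scale) for the 14456 genes tested. Grey points are under 2-fold, blue points are protein-coding genes and orange points other genes past 2-fold (dashed lines), the triangle is COP1 at −0.71, and most of the 135 calls sit at a low mean level.

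A first group of higher genes in HepG2 encoded proteins that the liver secretes into blood. Of 34 secreted liver proteins tested, 4 were called higher at 2-fold and 8 at 1.5-fold, none was lower at either threshold, and 32 had a value above 0. Over all genes tested in HepG2, 0.54% were higher at 2-fold and 2.56% at 1.5-fold. The list was chosen with earlier results of these data known. It had a median log2 fold change of 0.35 in HepG2 and −0.10 in Huh7, against −0.01 over all genes tested in HepG2. No member reached 1.5-fold in Huh7. Of the 32 members tested in both lines, 30 had a higher log2 fold change in HepG2 than in Huh7. In bulk RNA a higher level per cell and a larger share of cells that express a gene cannot be told apart.

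All 3 chains of fibrinogen, the precursor of the fibrin clot, were called higher in HepG2. FGA (gene 2243, chromosome 4, 154583126 to 154590742) was at 18.997 TPM in the control and 41.5 TPM after knockdown, a log2 fold change of 1.09. FGB (gene 2244, chromosome 4, 154562980 to 154572807) was at 6.97 and 15.5 TPM (1.05), and FGG (gene 2266, chromosome 4, 154604134 to 154612808) at 34.4 and 71.7 TPM (1.04). These neighbouring genes thus had COP1-siRNA levels 2.19-fold, 2.23-fold and 2.08-fold of the control by plain TPM. In Huh7 the same genes were expressed at a far higher level and stayed within 1.5-fold, with 2068 and 1934 TPM for FGA (−0.10), 2461 and 2403 TPM for FGB (−0.03), and 1577 and 1674 TPM for FGG (0.09). HPX, the carrier of free haem (gene 3263, chromosome 11, 6431049 to 6440987), was at 1.67 and 4.82 TPM in HepG2 (1.12) and at 85.8 and 95.0 TPM in Huh7 (0.15).

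Past 1.5-fold in HepG2 were also KNG1, the precursor of bradykinin (0.825 and 2.55 TPM, 0.96), FETUB (0.534 and 1.69 TPM, 0.81), the thrombin inhibitor SERPINC1 (15.3 and 26.6 TPM, 0.76) and complement factor B, CFB (6.98 and 11.3 TPM, 0.62). KNG1 and FETUB were under 1 TPM in the control and entered the tested set only through the COP1-siRNA library. Below 1.5-fold stood VTN (10.7 and 16.4 TPM, 0.58), APOB (95.0 and 142 TPM, 0.57), C3 (99.8 and 139 TPM, 0.48) and SERPINA1 (399 and 536 TPM, 0.42). Closer to 0 were albumin at 1509 and 1598 TPM (0.08) and AFP, the fetal counterpart of albumin, at 370 and 399 TPM (0.11). Haptoglobin, HP, an acute-phase protein, was at 18.9 and 17.2 TPM (−0.13), and CP, the copper carrier, at 2.27 and 1.85 TPM (−0.20), and these were the only members of the 34 with a value below 0 in HepG2.

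The promoters of the called plasma protein genes, and of GSTA2 and UBD described next, are shown. The plasma protein genes were taken because they moved together, and GSTA2 and UBD do not belong to that list. Each is 300 bases (250 before and 50 after the RefSeq start site) of GRCh38.p14, read 5′ to 3′ on the gene's strand. Capitals mark 3 motifs searched on both strands, GTTAAT (a motif of liver promoters, ATTAAC on the other strand), CTGGGAA (an IL-6 response element, TTCCCAG on the other strand) and TTGCNNAA (a C/EBP motif, with its reverse complement).
FGA, chr4:154590693-154590992, minus strand: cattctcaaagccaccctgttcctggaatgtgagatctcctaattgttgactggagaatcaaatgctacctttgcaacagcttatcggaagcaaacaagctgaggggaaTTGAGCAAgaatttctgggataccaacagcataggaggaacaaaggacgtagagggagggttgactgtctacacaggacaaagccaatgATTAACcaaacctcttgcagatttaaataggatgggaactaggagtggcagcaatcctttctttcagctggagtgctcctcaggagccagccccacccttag
FGB, chr4:154562730-154563029, plus strand: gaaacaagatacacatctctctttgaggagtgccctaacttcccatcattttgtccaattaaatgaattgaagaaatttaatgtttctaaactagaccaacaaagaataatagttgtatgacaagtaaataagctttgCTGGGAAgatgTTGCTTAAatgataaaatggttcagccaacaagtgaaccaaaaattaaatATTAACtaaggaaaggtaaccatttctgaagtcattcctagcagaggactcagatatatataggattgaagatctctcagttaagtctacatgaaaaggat
FGG, chr4:154612607-154612906, minus strand: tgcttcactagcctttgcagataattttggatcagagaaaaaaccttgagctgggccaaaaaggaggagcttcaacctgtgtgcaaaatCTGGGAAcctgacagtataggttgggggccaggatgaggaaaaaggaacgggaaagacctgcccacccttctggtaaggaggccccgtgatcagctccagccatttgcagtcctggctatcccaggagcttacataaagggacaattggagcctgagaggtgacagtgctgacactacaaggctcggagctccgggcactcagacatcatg
HPX, chr11:6440938-6441237, minus strand: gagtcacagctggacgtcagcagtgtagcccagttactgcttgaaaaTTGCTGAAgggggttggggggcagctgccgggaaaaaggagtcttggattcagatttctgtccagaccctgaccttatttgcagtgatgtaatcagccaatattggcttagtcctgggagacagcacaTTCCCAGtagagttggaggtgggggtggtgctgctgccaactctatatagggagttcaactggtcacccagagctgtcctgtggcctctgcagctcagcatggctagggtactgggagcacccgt
GSTA2, chr6:52763426-52763725, minus strand: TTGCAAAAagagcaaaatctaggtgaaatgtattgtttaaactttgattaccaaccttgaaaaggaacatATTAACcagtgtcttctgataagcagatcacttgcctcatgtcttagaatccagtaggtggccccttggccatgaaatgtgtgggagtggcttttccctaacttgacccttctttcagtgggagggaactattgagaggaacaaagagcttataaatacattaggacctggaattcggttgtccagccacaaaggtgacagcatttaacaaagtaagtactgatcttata
UBD, chr6:29559683-29559982, minus strand: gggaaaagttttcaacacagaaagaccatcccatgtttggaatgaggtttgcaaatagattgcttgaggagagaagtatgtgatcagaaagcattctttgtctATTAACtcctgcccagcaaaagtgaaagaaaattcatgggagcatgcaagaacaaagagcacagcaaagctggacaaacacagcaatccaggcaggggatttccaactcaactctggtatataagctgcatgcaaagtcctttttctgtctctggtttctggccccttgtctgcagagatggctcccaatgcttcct

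GTTAAT was found 52 bases before the start site of FGA and 51 bases before that of FGB, both on the opposite strand. FGB also had CTGGGAA at 112 bases and TTGCNNAA at 101 bases before its start, without overlap between the 3 matches. FGG had CTGGGAA at 161 bases and HPX had it at 75 bases before the start. GSTA2 and UBD also held GTTAAT. Among called higher genes searched but not shown, AKR1D1 and UGT1A1 held GTTAAT, while CHGA, SCG3 and CIDEC did not. Of the 10257 promoters of tested protein-coding genes, 3.56% held GTTAAT, 11.1% CTGGGAA and 6.86% TTGCNNAA. Among the 26 promoters of protein-coding genes called higher in HepG2, 8 held GTTAAT (30.8%), and they were AKR1D1, FGA, FGB, GSTA2, KRTAP19-1, UBD, UGT1A1 and UNC93A. None of the 16 promoters of called lower genes held it. At 1.5-fold the shares were 24 of 160 higher genes (15%) and 4 of 134 lower genes (2.99%), and GSTA1, SERPINA10, SERPINA4, SERPINA6, CFI, LIPC and IFI27 were among the 24. Over all 365 protein-coding genes with GTTAAT the median log2 fold change was 0.05 in HepG2, against −0.01 without it. Within the secreted liver proteins the order was the reverse, with a median of 0.25 for the 7 with GTTAAT (ALB, AFP, APOH, FGA, FGB, F2 and PROC) and 0.35 for those without it, of 25 promoters. CTGGGAA was held by 3 of the 26 higher promoters (11.5%) and TTGCNNAA by 6 (23.1%). At 1.5-fold TTGCNNAA was held by 21 of the 160 higher genes (13.1%) and 13 of the 134 lower genes (9.70%). Over all protein-coding genes the HepG2 median was −0.0005 with TTGCNNAA, against −0.01 without it. TGACG, the core of the cAMP response element, was held by 34.9% of all these promoters and by 8 of the 26 (30.8%), CHGA and SCG3 among them. The motifs were chosen with the called genes known, and a match is a run of letters and not a bound site.

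Transcription factors of hepatocytes differed by less than 1.5-fold in HepG2 without exception among the 20 tested, and 16 of them had a value above 0. HNF4A was at 9.13 and 12.1 TPM (0.37) and CEBPB at 17.0 and 20.7 TPM (0.27). The median was 0.12 in HepG2 and −0.27 in Huh7, and 18 of the 20 genes tested in both lines had the higher log2 fold change in HepG2.

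Enzymes that oxidise or conjugate drugs and steroids were another group with higher members in HepG2. Against 0.54% and 2.56% of all genes tested, 2 of the 20 cytochrome P450 and conjugating enzymes tested were called higher and 6 reached 1.5-fold. None of the 20 was lower at either threshold, and their median was 0.19. Of the 15 tested in both lines 8 had the higher log2 fold change in HepG2. GSTA2, a glutathione S-transferase (gene 2939, chromosome 6, 52750087 to 52763475), was at 7.15 TPM in the control and 20.99 TPM after knockdown, a log2 fold change of 1.43. Its paralog GSTA1 was at 56.9 and 102 TPM (0.84), and because these genes are nearly identical the division of reads between them is uncertain. UGT1A1, which conjugates bilirubin (gene 54658, chromosome 2, 233760270 to 233773300), was at 3.42 and 8.83 TPM (1.15). UGT1A1 shares its 3′ exons with 8 overlapping UGT1A genes, and the sum over that locus was 5.77 and 12.8 TPM (1.02). In Huh7 UGT1A1 was at 10.1 and 8.76 TPM (−0.18). CYP1A1 was at 21.4 and 34.9 TPM in HepG2 (0.68), CYP24A1, which inactivates vitamin D, at 3.49 and 6.18 TPM (0.68), and CYP1B1 at 2.39 and 4.15 TPM (0.60) with 12.9 and 37.9 TPM in Huh7 (1.49). CYP26A1, which degrades retinoic acid, was at 4.72 and 3.40 TPM in HepG2 (−0.38). AKR1D1, a reductase of bile acid synthesis, was the only member of the bile acid list past 1.5-fold in HepG2, at 1.52 and 4.12 TPM (1.02), and the list had a median of 0.13 over 13 genes.

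Outside these families, 3 of the called higher genes stood out by level in HepG2. UBD, a ubiquitin-like protein that targets substrates to the proteasome (gene 10537, chromosome 6, 29555515 to 29559732), was at 38.0 and 103 TPM, a log2 fold change of 1.42, against 0.55 in Huh7. SDC4, a heparan sulfate proteoglycan of the cell surface (gene 6385, chromosome 20, 45325288 to 45348424), was at 35.6 and 77.1 TPM (1.10), against 0.34 in Huh7. KRTAP19-1, a hair keratin-associated protein gene, was at 38.8 and 82.7 TPM (1.07) in HepG2 and under 1 TPM in both Huh7 libraries. CIDEC, a lipid droplet protein, was at 1.17 and 4.16 TPM (1.25) in HepG2 and had a log2 fold change of 0.72 in Huh7, while the other 25 genes of lipogenesis and lipid droplets tested were within 1.5-fold in HepG2. ELOVL6, a fatty acid elongase, was next in size at 16.6 and 10.9 TPM (−0.57). ANXA1, a membrane-binding annexin, was at 3.77 and 11.1 TPM in HepG2 (1.34) and had a log2 fold change of 1.55 in Huh7. CDA, cytidine deaminase, was at 3.45 and 8.32 TPM (1.07), and BEX1 at 6.47 and 14.5 TPM (1.05).

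The higher calls of HepG2 were set beside Huh7. Of the 42 protein-coding calls that are not read-through genes, 28 higher and 14 lower, 18 were under 1 TPM in both Huh7 libraries. Of the other 24, 8 were within 0.2 of 0 on the log2 scale in Huh7, 5 lay between that and 1.5-fold, 9 were at least 1.5-fold in the same direction and 2 at least 1.5-fold in the opposite direction. Over all Huh7 genes tested, 2.8% were higher by 1.5-fold or more and 2.68% lower by as much. The 7 higher genes within 0.2 of 0 in Huh7 were FGA, FGB, FGG, HPX, UGT1A1, CDA and LOC112694756. LOC112694756 had the largest log2 fold change of them in HepG2, 2.33 (61.2 and 312 TPM), but it overlaps ALDOA on the same strand, and the summed level of both was 1734 and 1594 TPM (−0.12). Under 1 TPM in both Huh7 libraries were SCG3, CHGA, CHGB, AP3B2, ACTL6B and TNNC2. ACTL6B, a neuronal subunit of the BAF chromatin complex, was at 0.188 and 1.74 TPM in HepG2 (1.21), and TNNC2, the fast skeletal troponin C, at 0.877 and 3.30 TPM (1.20).

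**Figure D2:**
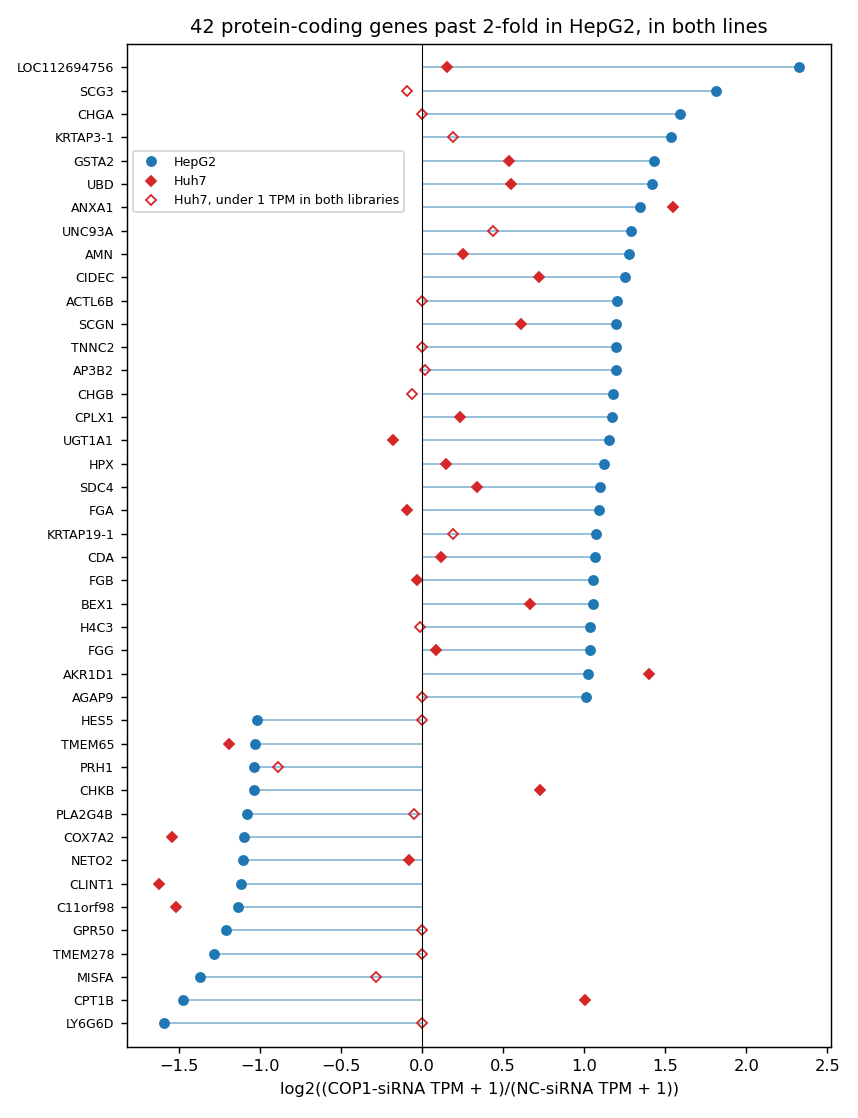
Log2 fold change of the 42 protein-coding genes past 2-fold in HepG2 that are not read-through genes, in HepG2 (blue circles) and Huh7 (red diamonds, open where both Huh7 libraries are under 1 TPM). ANXA1, AKR1D1, TMEM65, COX7A2, CLINT1 and C11orf98 are past 2-fold in the same direction in Huh7, while the fibrinogen chains lie near 0 there, and CPT1B and CHKB lie on the other side of 0.

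Claudins, the sealing proteins of tight junctions, had 3 of 14 tested members of their list past 1.5-fold in HepG2 and a list median of 0.13. Over all genes tested 2.56% were higher by as much, and 5 of the 14 lay below 0. CLDN4 was at 6.89 and 13.8 TPM (0.91), CLDN1, which is also an entry factor of hepatitis C virus, at 6.84 and 13.6 TPM (0.90), and CLDN6, an oncofetal claudin, at 7.86 and 13.7 TPM (0.73). In Huh7 CLDN1 was at 323 and 298 TPM (−0.12) and CLDN6 at 157 and 158 TPM (0.01). The scaffold proteins TJP1 (24.3 and 25.4 TPM, 0.06) and OCLN (10.96 and 10.4 TPM, −0.07) showed little difference in HepG2. CDH1, the epithelial cadherin, was at 5.92 and 11.5 TPM (0.86), and TGFBI, a matrix protein, at 24.2 and 38.8 TPM (0.66), while COL2A1 was at 31.8 and 19.9 TPM (−0.65).

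Inflammatory and cytoskeletal lists had higher medians without a 2-fold call in HepG2. Over all genes tested in HepG2, 2.56% were at least 1.5-fold higher. Among 12 NF-kB targets tested, 11 had a value above 0 and 2 reached 1.5-fold, with a median of 0.37 against 0.24 for the same genes in Huh7. They were the chemokine CXCL8 (3.78 and 8.33 TPM, 0.97) and the adhesion receptor ICAM1 (14.7 and 23.0 TPM, 0.61). Of 26 interferon-stimulated genes tested 4 reached 1.5-fold and the median was 0.22. Over the 18 tested in both lines the median was 0.16 in HepG2 and 0.10 in Huh7, and 8 of the 18 had the higher log2 fold change in HepG2. GBP1, an interferon-induced GTPase, was at 0.352 and 1.70 TPM in HepG2 (0.996) and at 7.29 and 28.2 TPM in Huh7 (1.82). ISG15, a ubiquitin-like modifier, was at 8.62 and 16.4 TPM (0.86), IFI27 at 2.59 and 4.79 TPM (0.69), and MX2 at 2.89 and 5.26 TPM (0.69), of which the last was 0.36 by depth-scaled coverage. OAS3, an antiviral synthetase, was at 3.50 and 2.34 TPM (−0.43). Of 17 actin, SRF and YAP targets tested 5 reached 1.5-fold, with a median of 0.17, and over the 16 tested in both lines the median was 0.15 in HepG2 and 0.28 in Huh7. They were THBS1 (3.54 and 7.17 TPM, 0.85), ANKRD1 (12.0004 and 20.7 TPM, 0.74), TAGLN (2.32 and 4.53 TPM, 0.74), TPM4, a tropomyosin gene (103 and 170 TPM, 0.72), and MYL9 (1.07 and 2.18 TPM, 0.62).

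Fewer protein-coding genes were called lower in HepG2, and several of them were abundant. COX7A2, a subunit of cytochrome c oxidase (gene 1347, chromosome 6, 75237675 to 75250298), was at 372 TPM in the control and 173 TPM after knockdown (−1.10). C11orf98 (gene 102288414, chromosome 11, 62662817 to 62665216) was at 122 and 55.1 TPM (−1.14), and CLINT1, a clathrin adaptor (gene 9685, chromosome 5, 157785747 to 157859145), at 75.7 and 34.3 TPM (−1.12). TMEM65, a protein of the mitochondrial inner membrane, was at 18.2 and 8.38 TPM (−1.04). These 4 genes were also past 2-fold lower in Huh7. NETO2, an auxiliary subunit of kainate receptors, was at 53.7 and 24.4 TPM in HepG2 (−1.11, and −0.71 by depth-scaled coverage) with −0.08 in Huh7. GPR50, an orphan receptor of the melatonin receptor family, was at 13.6 and 5.30 TPM (−1.21), LY6G6D, a GPI-anchored surface protein, at 8.96 and 2.30 TPM (−1.60), and HES5, a repressor induced by Notch, at 4.68 and 1.79 TPM (−1.02). GPR50, LY6G6D and HES5 were under 1 TPM in both Huh7 libraries.

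The 7-base sequence AGCAGTC, chosen with earlier results of these data known, was searched in the 3′ untranslated regions (UTRs) of lowered HepG2 genes. In GENCODE 29 on GRCh38, with 1 transcript for each gene, it was present in 1105 of 12376 tested genes (8.93%). It was present in 40 of the 149 genes at least 1.5-fold lower (26.8%) and in 6 of the 208 at least 1.5-fold higher (2.88%). Of the genes called at 2-fold, it was present in 3 of 16 lower (COX7A2, C11orf98 and TMEM65) and 0 of 32 higher genes, and the chosen CLINT1 transcript lacked it. Sites of 8 lowered genes are shown with 9 bases on each side in their 3′ UTRs, with the site in capitals, 5′ to 3′ on the gene's strand; the coordinates are those of the site.
COX7A2, chr6:75237796-75237802, minus strand: caccaataaAGCAGTCtttaccatg
C11orf98, chr11:62662850-62662856, minus strand: ggcctctctAGCAGTCaactccatt
MRPL18, chr6:159798344-159798350, plus strand: tctaagaaaAGCAGTCatcaattat
BOLA3, chr2:74135516-74135522, minus strand: tcttccctaAGCAGTCaccaaaaaa
MZT1, chr13:72710018-72710024, minus strand: aattttctaAGCAGTCtgtctatca
HIF1A, chr14:61747138-61747144, plus strand: attacctaaAGCAGTCtatttatat
TALDO1, chr11:764998-765004, plus strand: atacattaaAGCAGTCacttttcct
SEPTIN2, chr2:241352726-241352732, plus strand: gaaaatcaaAGCAGTCataagctcc

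COX7A2 and BOLA3, a factor of iron-sulfur cluster assembly (206 and 108 TPM, −0.93), carried the site in short 3′ UTRs of 255 and 195 bases. The site was also present in MRPL18, a mitochondrial ribosomal protein (235 and 133 TPM, −0.82), MZT1, a component of the gamma-tubulin complex (70.9 and 36.4 TPM, −0.94), HIF1A, the hypoxia-inducible transcription factor subunit (90.5 and 55.1 TPM, −0.70), TALDO1 of the pentose phosphate pathway (283 and 180 TPM, −0.65), and SEPTIN2, a cytoskeletal GTPase (362 and 197 TPM, −0.88). Of the 12 members of the 36 gene lists at least 1.5-fold lower in HepG2, 7 held the site: COX7A2, MZT1, BOLA3, MRPL18, HIF1A, TALDO1 and PDK1. Both the lists and the site were chosen with earlier results of these data known, so this count is a description only. Over all 1105 genes with the site the median log2 fold change was −0.08, against −0.00 without it, and 64.7% lay below 0, against 51.0%. The 402 genes in which an A follows the site had a median of −0.10, and 6.22% of them were at least 1.5-fold lower, against 2.28% of the 658 with 1 copy and no such A and 0.967% of the 11271 with no copy. The 7-base matches to the seeds of both strands of the COP1 and control siRNAs were searched in the same way. CCAAGTT was present in 4.70% of the 149 lower genes, AGCATTC in 7.38%, TCGGAGA in none and TGTCACG in 2.01%, against 10.7%, 9.76%, 1.82% and 2.58% of all genes. No seed of the 2370 mature human microRNA names in the RefSeq table pairs with AGCAGTC over bases 2 to 8. The lowered genes with the site were often lower in Huh7 too. Of 33 such genes tested there, 24 were at least 1.5-fold lower in Huh7, with a median of −0.98, against 29 of 65 lowered genes without the site, with a median of −0.50.

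The remaining pathways were mostly level in HepG2. The 36 lists held 961 distinct genes, of which 861 were tested, and 10 of these were called higher and 2 lower, while 47 were past 1.5-fold upwards and 12 downwards. In 28 of the lists no member was called at 2-fold. The list median was above 0.1 in 15 lists, below −0.1 in 1 list and within 0.1 of 0 in 20. The cytosolic ribosomal proteins had a median of 0.01 over 79 genes with no member past 1.5-fold, and the nuclear-encoded respiratory chain a median of 0.02 over 77 genes, with COX7A2 alone past 1.5-fold. The mitochondrial ribosomal proteins had a median of 0.00 over 78 genes, with MRPL18 and MRPL42 past 1.5-fold lower. Cell cycle genes had a median of −0.04 over 36 genes, with MZT1 alone past 1.5-fold and GINS1, a replication factor, at 69.1 and 46.6 TPM (−0.56). Cholesterol synthesis genes had a median of −0.06 over 24 genes, 19 of them below 0, with HSD17B7 at 26.6 and 17.3 TPM (−0.59). The hypoxia list had the lowest median, −0.15 over 16 genes, with 13 below 0, HIF1A at −0.70, and EPAS1, the gene of HIF-2α, at 14.9 and 23.1 TPM (0.60). The p53 targets had a median of −0.03 over 28 genes, with BTG2 (10.8 and 17.4 TPM, 0.65) and TP53I3 (9.16 and 14.6 TPM, 0.61) past 1.5-fold higher. The 22 NRF2 targets had a median of 0.12, with TALDO1 past 1.5-fold lower (−0.65), SLC7A11, the cystine transporter, at 9.61 and 15.5 TPM (0.64) and OSGIN1 at 7.49 and 11.8 TPM (0.59) past it higher, and each of the 22 had a higher log2 fold change in HepG2 than in Huh7. SLC2A3, a neuronal-type glucose transporter, was the only glucose metabolism gene past 1.5-fold in HepG2, at 6.63 and 13.1 TPM (0.88).

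**Figure D3:**
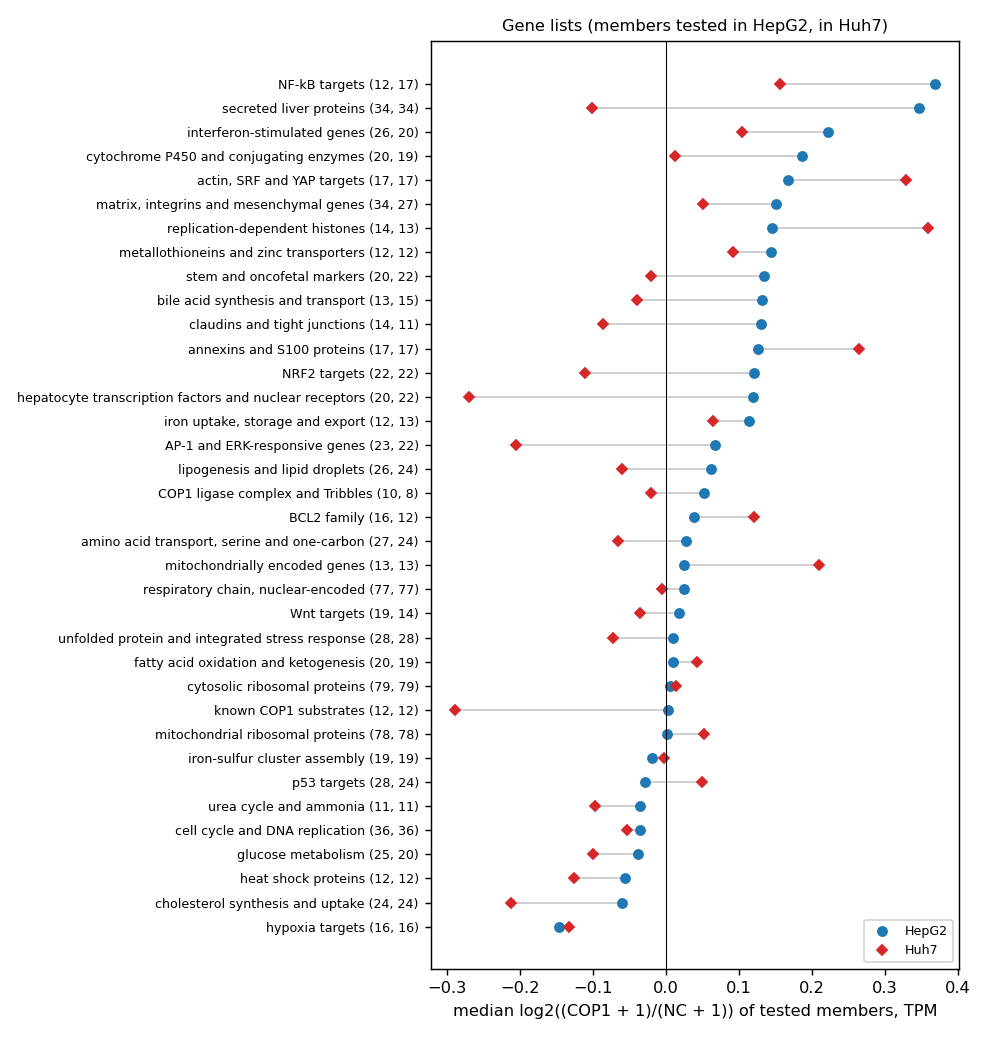
Median log2 fold change (horizontal axis) of the tested members of each of the 36 gene lists in HepG2 (blue circles) and Huh7 (red diamonds), with the numbers tested in brackets. Secreted liver proteins lie at 0.35 in HepG2 and −0.10 in Huh7, and the hepatocyte transcription factors at 0.12 and −0.27, while lists such as the cytosolic ribosomal proteins lie near 0 in both lines.

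Short RNA genes and read-through genes made up much of the rest. Of 202 snoRNA genes tested, 16 were called lower in HepG2 (7.92%) and 1 higher, with a median of −0.20, while in Huh7 2 of 167 were lower and 22 higher, with a median of 0.41. The genes named SNORD, which mostly guide methylation of ribosomal RNA, had a median of −0.27 over 131 genes and 13 of the lower calls, and those named SNORA, which mostly guide pseudouridylation, a median of 0.02 over 71 genes with 3 lower. SNORD30 was at 25.0 and 11.03 TPM (−1.11) and SNORD31, from the same host gene, at 23.2 and 10.9 TPM (−1.03). These values rest on few reads, since no lower snoRNA exceeded 4366 aligned bases in either HepG2 library. For 15 of the 16, the summed level of the snoRNA and the genes that overlap it differed by less than 1.5-fold. Other non-coding RNAs were called higher. RN7SK, which holds the elongation factor P-TEFb inactive, was at 16.9 and 42.8 TPM in HepG2 (1.29) with −0.02 in Huh7. The signal recognition particle RNAs were at 3.10 and 8.82 TPM for RN7SL3 (1.26), 45.8 and 91.7 TPM for RN7SL2 (0.99), and 55.3 and 83.7 TPM for RN7SL1 (0.59). Of 28 tRNA genes tested 4 were called higher and 1 lower, against 0.54% and 0.394% of all genes tested. These RNAs mostly lack a poly(A) tail, and how much of them a library made from polyadenylated RNA keeps was not tested here.

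The largest log2 fold change in HepG2 belonged to SENP3-EIF4A1, a read-through gene, at 1.07 and 44.2 TPM (4.45). The sum over SENP3-EIF4A1 and the genes that it overlaps was 1354 and 1392 TPM (0.04). Such read-through genes, whose transcripts join neighbouring genes, made up 15 of the 135 calls by a rule on gene names, and the assignment of their reads is uncertain. The rule missed CZ1P-ASNS, a read-through gene by its name, called higher at 0.895 and 3.50 TPM (1.25) with 0.14 over its locus. JMJD7-PLA2G4B (0 and 1.95 TPM) had a change of −0.18 over its locus, TVP23C-CDRT4 was −0.14 over its locus, and BIVM-ERCC5 −0.03. NEAT1, a nuclear long non-coding RNA, was at 13.3 and 2.01 TPM (−2.25), but its depth-scaled coverage gave −0.18. In the same way UNC93A (1.29), AMN (1.28) and FRG1BP (1.16) had coverage changes of 0.32, 0.24 and 0.04.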

How the data were processed

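Polyadenylated RNA of HepG2 and Huh7 cells was sequenced from stranded libraries, with 1 library for each line and siRNA. Per the labels the authors trimmed reads with Trimmomatic 0.38 after quality checks with FastQC 0.11.7, aligned them to GRCh38 with HISAT2 2.1.0 and quantified genes with StringTie 2.1.3b. edgeR is also named there, without a version, and was not used here. The authors deposited TPM, FPKM and coverage for each gene. TPM was the main unit, and FPKM and coverage (a signal in reads per base) served as alternatives. The deposited values hold no read counts, so depth is known only as a ratio, and no interval could be given.

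TPM was summed over lines that share a gene number (51 gene numbers were on more than 1 line), and 44698 of 46427 gene numbers (96.3%) were named from the RefSeq table of GRCh38.p14. Genes with at least 1 TPM in either library of a line were compared as log2 of the ratio of TPM + 1. With 1 library a side no test was run, and 2-fold marks a call, with 1.5-fold as the second threshold. Coverage was scaled by the 99th percentile of coverage over TPM in its library. Genes were named by rule: COP1; the 12 protein-coding genes with the largest change past 2-fold each way whose scaled coverage moved 1.5-fold the same way; list members past 2-fold, or up to 4 with the largest change in a list; up to 10 calls within 0.2 of 0 in Huh7 and up to 10 not tested there; calls that moved 1.5-fold the other way in Huh7; and 5 non-coding genes over 200 bases each way. Others were chosen after their values were seen. The gene lists, motifs and members were chosen with earlier results of these data known. In simulated data for the HepG2 comparison, with 14114 genes tested, 200 of 200 genes changed 4-fold were recovered and 0 others were called. The changed genes were drawn from those at 5 TPM or more in the control and were given no noise. The other genes were given less spread than the SD of 0.28 in the HepG2 data. This result was therefore set by the settings, and it checks the code and gives no rate of false calls. Of the 135 real calls, 80 were under 5 TPM in both HepG2 libraries. Promoters came from RefSeq, and 3′ UTRs from GENCODE 29. Computations used Python 3.11.15, numpy 2.4.6, pandas 2.3.3, SciPy 1.17.1 and matplotlib 3.10.9. Alternatives were other pseudocounts, FPKM, scaled coverage, median-of-ratios scaling, other minimum levels, protein-coding genes only, 1.5-fold, and TPM summed over overlapping genes. Results for some genes are not reported here.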

Additional observations from a re-analysis of the deposited data

Results flagged for a closer look

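Of the 135 genes called in HepG2, 67 were not tested in Huh7 and 13 moved at least 1.5-fold in the opposite direction there. Over all Huh7 genes tested, 2.8% were higher by as much and 2.68% lower. With 1 library a side the difference between the lines was not tested.

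Both protein-coding genes that moved in opposite directions in the lines and are not read-through genes lie side by side. CPT1B, the muscle-type carnitine palmitoyltransferase of fatty acid oxidation, was at 4.25 TPM in the control and 0.885 TPM after knockdown in HepG2 (log2 fold change −1.48) and at 0.400 and 1.80 TPM in Huh7 (1.00). CHKB, a choline kinase, was at 9.80 and 4.25 TPM in HepG2 (−1.04) and at 4.84 and 8.68 TPM in Huh7 (0.73). Both overlap the read-through gene CHKB-CPT1B. Summed with it alone, the change in HepG2 was −0.28 for CPT1B and −0.47 for CHKB, and each of these sums leaves out the other gene. Over CPT1B, CHKB and CHKB-CPT1B together the summed change in HepG2 was −0.77, which is past 1.5-fold lower. In each line CHKB-CPT1B moved against CPT1B and CHKB, at 0.920 and 3.20 TPM in HepG2 (1.13) and 0.985 and 0.138 TPM in Huh7 (−0.80). The division of reads among these genes is therefore uncertain in both lines, and the summed change in Huh7 is not given here.

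Among the read-through genes, SERF2-C15ORF63 had a log2 fold change of 2.61 in HepG2 and −0.80 in Huh7, with 0.04 over its locus in HepG2. BCL2L2-PABPN1 had −1.10 and 1.72, with 0.05 over its locus in HepG2.

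The other 9 are short RNA genes inside a host gene. Among the snoRNAs, SNORD49B had −1.36 in HepG2 and 0.59 in Huh7, SNORD12 −1.19 and 1.00, SNORD5 −1.13 and 0.69, and SNORD101 −1.01 and 0.75. Among the microRNA genes, MIR636 had −1.77 and 0.60, MIR1292 −1.51 and 1.16, MIR647 −1.37 and 0.98, MIR6859-3 −1.11 and 0.67, and MIR3153 1.22 and −0.85. The whole classes also differed between the lines. The median over all snoRNA genes tested was −0.20 in HepG2 and 0.41 in Huh7, and over all microRNA genes −0.11 and 0.25. No gene of the 9 exceeded 1327 aligned bases in either HepG2 library, and each summed change with the host gene in HepG2 lay between −0.32 and 0.10.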

How the results depend on the processing

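No paired analysis was possible because each line and siRNA has 1 library and the labels give no replicate numbers. The counts of calls depended on the settings, while the COP1 value in HepG2 lay between −0.53 and −0.74 in each alternative. The 78 higher and 57 lower genes became 227 and 145 with a pseudocount of 0.1, 9 and 6 with 5, 21 and 18 with FPKM (whose values are smaller against the pseudocount), 29 and 26 with a minimum of 5 TPM, 33 and 19 among protein-coding genes, and 370 and 270 at 1.5-fold. The 17 calls within 0.2 of 0 in Huh7 became 37 with a pseudocount of 0.1, 5 with a pseudocount of 5, 62 with no minimum, 9 with a minimum of 5 TPM, 9 among protein-coding genes and 113 at 1.5-fold. The 12 calls within the gene lists became 21 with a pseudocount of 0.1, 2 with 5, 5 with FPKM, 7 with a minimum of 5 TPM and 59 at 1.5-fold. The difference in median between genes with and without AGCAGTC lay between −0.091 and −0.066 in the alternatives run. For the 182 named genes, 984 of 1092 values kept direction and side of the threshold, 95 no longer passed it, 5 newly passed it and 8 turned direction. These 8 were values summed over overlapping genes: LOC112694756 (−0.12), JMJD7-PLA2G4B (−0.18), BCL2L2-PABPN1 (0.046), SNORA2B (−0.0043), SCARNA4 (0.0038), MIR3153 (−0.17), SNORD101 (0.10) and LOC105374369 (0.0044). Median-of-ratios scaling, with HepG2 factors of 1.001 and 0.999, left all 182 values the same. Scaled coverage uses the same read assignment as TPM and left 178 the same. Many named genes lay well under 2-fold and could not easily change side, so the 984 does not measure how firm the calls are. Of 324 list medians, 5 moved by more than 0.1. Just inside the 2-fold threshold were MIR6840 and MIR7106 (both 1.01) and just outside GBP1 (0.996) and KMT2E-AS1 (0.99), and on the lower side LOC105372493 and MIR6733 inside (both −1.003) and MIR6834 (−0.9997) and SNORD45C (−0.9989) outside. The unknown number of reads limits what can be said of genes near 1 TPM.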

Other observations

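Genes of secretory granules and synaptic vesicles, which neuroendocrine cells use to store and release peptides, included several of the called higher genes of HepG2. The list was written after their values were seen, so its counts are a description only. Of its 15 tested genes 6 were called higher, with a median log2 fold change of 0.46, and 4 had a value below 0. Over the 8 tested in both lines the median was 0.11 in HepG2 and 0.10 in Huh7. SCG3, a granin that helps to load granules, was at 0.399 TPM in the control and 3.91 TPM after knockdown (1.81). The granins CHGA (0.755 and 4.28 TPM, 1.59) and CHGB (0.584 and 2.59 TPM, 1.18) were below 1 TPM in the control. SCG3, CHGA and CHGB thus entered the tested set only through the COP1-siRNA library, where they were higher. AP3B2, a neuronal subunit of the AP-3 adaptor, was at 2.11 and 6.13 TPM (1.19), the calcium-binding protein SCGN at 1.22 and 4.11 TPM (1.20), and CPLX1, a regulator of vesicle fusion, at 5.13 and 12.8 TPM (1.17). SYP, a vesicle membrane protein, was at 15.1 and 26.6 TPM (0.78). CPE, a carboxypeptidase of granules, was at 57.2 and 52.3 TPM (−0.13). In Huh7 SCG3, CHGA, CHGB and AP3B2 were below 1 TPM in both libraries, while SCGN was at 37.8 and 58.2 TPM (0.61).

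Acute-phase proteins, in a list also written after the values were seen, had a median of 0.43 over 23 tested genes in HepG2, and over the 21 tested in both lines 0.48 in HepG2 and −0.06 in Huh7, with 7 members at least 1.5-fold higher in HepG2. Beside HPX, CFB and the fibrinogen chains these were LCN2, an iron-chelator carrier (0.348 and 1.60 TPM, 0.95), and the complement protease C1S (7.63 and 13.5 TPM, 0.75). The orosomucoids were at 182 and 246 TPM for ORM1 (0.43) and 105 and 153 TPM for ORM2 (0.54), and these paralogs are nearly identical. HAMP, the iron hormone hepcidin, was at 12.4 and 10.8 TPM (−0.18), and FGL1 at 6.78 and 5.57 TPM (−0.24).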
